A study of Rattus norvegicus with 4 samples.

Results

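The nuclear genes of oxidative phosphorylation were followed through the cell types of the rat anterior pituitary gland. Genes were taken by symbol: the prefixes Nduf followed by a, b, c, s or v, Uqcr, Cox4 to Cox8 and Atp5, and the names Sdha to Sdhd. Of 30058 genes in the table, 96 matched, and 90 of these had at least 1 unique molecular identifier (UMI, the tag of a single captured transcript) in 30 or more cells. These 90 members held 2381634 of 86742346 UMIs, or 2.75%. By their known roles, 38 were counted with complex I, 4 with complex II, 8 with complex III, 15 with complex IV and 14 with complex V. A further 7 are assembly factors of complex I, 1 is a pseudogene (Ndufv3-ps1), and 3 carry the names but are not subunits (Atp5s, Atp5sl and Cox7a2l). These counts are of rows. In complex I, Ndufb1 and Ndufb1-2 are rows of the same symbol, and Ndufa10l1 is a like gene of Ndufa10. The 6 rows below the limit were Cox8b (24 cells), Ndufa1-2 (7 cells), Cox7b2 (5 cells), Cox8c (4 cells), Cox6c-ps1 (2 cells) and Atp5f1 (1 cell).

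The cells came from dispersed anterior pituitaries of Sprague Dawley rats, with droplet capture and counting of transcripts at their 3′ ends. Females in diestrus at postnatal day 44 and males at day 59 each gave 1 pool of 4 pituitaries, and each pool was run on 2 lanes. The lanes are technical replicates, so errors of sex differences come from lanes of the same pool. Errors between types come from sums per type and sex, and measure how far type differences disagree between the female and the male pool. A difference between the sexes cannot be told apart from one between the ages or the pools. Of 7861 cells, 6845 were kept and assigned by marker genes to folliculostellate cells (FSC, 2312), somatotrophs (S, 1888), corticotrophs (C, 794), leukocytes (Le, 546), lactotrophs (L, 485), erythrocytes (E, 361), gonadotrophs (G, 238), endothelial cells (EC, 133) and thyrotrophs (T, 88).

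Lanes 1 and 2 are female and lanes 3 and 4 are male, and values in 4 lanes are always given in that order. The lanes held 18955509 to 24048021 UMIs, with medians of 7971 to 9413 per cell. Kdm5d, a gene of the Y chromosome, had 0 and 0 UMIs in the female lanes and 228 and 264 in the male lanes, and Eif2s3y, another such gene, had 0 and 1 against 2038 and 2100. The row read for Ddx3y, also on the Y chromosome, did not separate the sexes, with 10 and 8 UMIs against 11 and 14. The study reports expression of Ddx3y only in male pituitary cells, and whether another row holds this gene was not checked. Between 3 and 7 barcodes were shared by any pair of lanes. Free RNA reached all types: Prl, the prolactin gene of L, stood at 1050 to 1900 CPM (the count of a gene scaled to the same total in every sum) in the female lanes and 160 to 347 CPM in the male lanes of the other nucleated types. In L it stood at 174029 to 320084 CPM.

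Oxidative phosphorylation passes electrons from NADH through complex I, or from succinate through complex II, to coenzyme Q, complex III, cytochrome c and complex IV, which reduces oxygen, while complex V uses the resulting proton gradient to make ATP. A small set of core subunits is encoded by mitochondrial DNA, and all other subunits come from the nucleus and are imported. Several subunits of complexes IV and V exist in more than a single form, each with a gene of its own, and some forms are known for their place in muscle, lung, testis or cells short of oxygen.

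For 76 members a promoter of 250 bases before to 50 bases after the start of the gene was at hand from RefSeq (assembly GRCr8). Letters that match known sites of factors with a part in mitochondrial gene expression were counted on both strands. CGCATGCGC, a form of the NRF1 site, was in 8 member promoters (10.5%) and in 1.66% of all 27457 promoters. CCGGAAG, the core of ETS factors such as GABP, was in 20 (26.3%) against 9.22%. AAGATGGC, a form of the YY1 site, was in 16 (21.1%) against 3.44%, TCAAGGTCA, a form of the ERR site, in 2 (2.63%) against 0.412%, and the Sp1 letters GGGCGG in 33 (43.4%) against 34.9%. A match describes letters only. The windows printed hold such letters in genes on which results below turn, among them Ndufa6 (highest in G), Atp5g2 (the subunit c gene that ran against Atp5g1) and Uqcrq (lower in male L), and capitals mark the matched letters.
Ndufa6, ETS, chr7:115750490-115750519, minus strand: aaccgaccgctgCCGGAAGcctcgacgctg
Uqcrq, ETS, chr10:38089983-38090012, minus strand: cttccgctcctcCCGGAAGtgacgtgcaaa
Sdhb, ETS, chr5:158547814-158547843, plus strand: ttactcgggataCCGGAAGctgccttccac
Cox8a, ETS, chr1:213833663-213833692, minus strand: atttccgaaataCTTCCGGgctgaggcgtc
Atp5g2, NRF1, chr7:135678256-135678285, minus strand: tggctctagtcGCGCATGCGcagagccttc
The promoters of Atp5g1, Cox6b2 and Cox6a2 held none of these letter runs.

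The members took the largest share of UMIs in G and the smallest, among nucleated cells, in Le. In G the share was 4.02, 4.22, 4.11 and 4.12% in the 4 lanes, and in T it was 3.53, 3.61, 3.28 and 3.32%. In C it was 3.32, 3.34, 3.40 and 3.43%. No lane of G overlapped a lane of any other type, while T and C overlapped each other. S had 2.75, 2.74, 2.94 and 2.93%, and L had 2.63, 2.76, 2.95 and 2.97%. FSC, which make no hormone, had 2.42, 2.47, 2.73 and 2.74%. S, L and FSC overlapped in part, as did EC with 2.66, 2.79, 2.61 and 2.61%. Le stood apart at 1.91, 1.92, 1.94 and 1.87%. In E, which lose their mitochondria as they mature, the share was 0.0646 to 0.0790% over the lanes, and the part of free RNA in this value was not tested.

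Hormone transcripts fill much of the total in endocrine cells, so the shares were also taken over UMIs without hormone and globin genes. The hormone genes made up 14.6% of UMIs in G, 16.3% in T, 20.5% in C, 27.4% in L and 30.2% in S, and 0.588% in FSC. Over the rest, the members took 4.76% in G, 4.26% in C, 4.05% in S, 4.03% in T and 3.79% in L, against 2.61% in FSC (means of 4 lanes). On this scale all 5 hormone-producing types (HPC) stood above FSC, EC and Le in every lane. The 13 protein genes of the mitochondrial genome took 6.89% ± 1.21 (SD, 4 lanes) of UMIs in T, 5.19% ± 0.171 in G, 4.63% ± 0.377 in FSC, 4.04% ± 0.0918 in C, 3.91% ± 0.107 in S, 3.53% ± 0.166 in L and 2.70% ± 0.0788 in Le. Over all UMIs, the order of the types by mitochondrial genes was thus another than by the nuclear members, with FSC above C, S and L. The mitochondrial shares were not taken over UMIs without hormone genes, which fill far more of C, S and L than of FSC. The place of FSC above C, S and L is therefore shown over all UMIs only, and the order on that scale may differ.

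**Figure D1:**
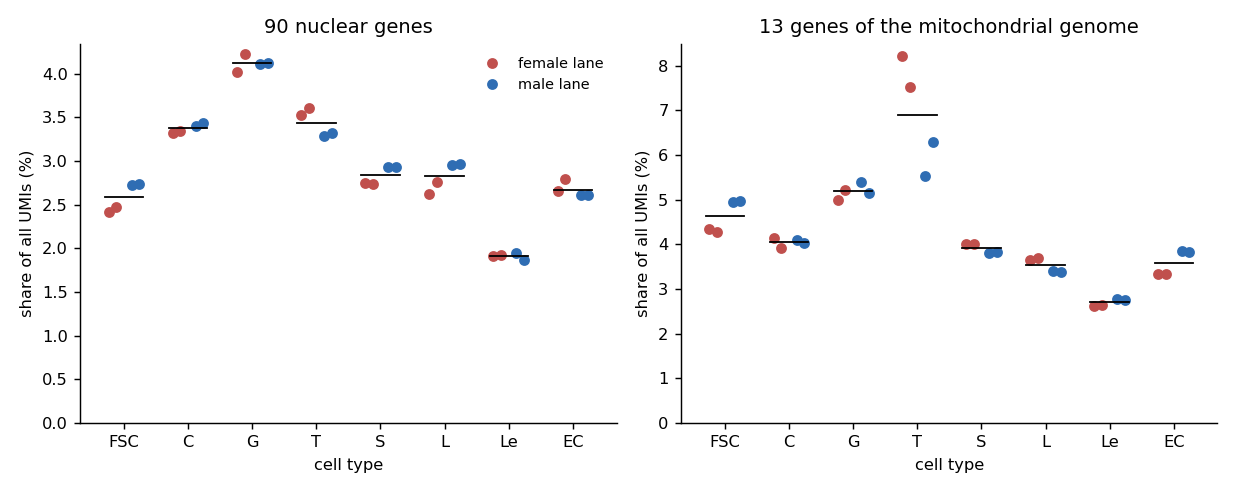
Share of all UMIs (%, vertical axis) held by the 90 members (left) and by the 13 protein genes of the mitochondrial genome (right) in each nucleated cell type, with a red point for each female lane, a blue point for each male lane and a line at the mean of 4 lanes. On the left G lie highest at 4.02 to 4.22% and Le lowest at 1.87 to 1.94%, while on the right T lie highest and FSC lie above C, S and L. Hormone genes fill far more of the UMIs of C, S and L than of FSC, so this order is shown over all UMIs only.

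Of the 90 members, 42 had their highest mean CPM in G, 17 in T, 10 in C, 9 in FSC, 6 in EC, 4 in Le, 2 in S and none in L. Their lowest mean was in Le for 58. These CPM are over all UMIs, of which hormone genes fill 30.2% in S and 27.4% in L against 14.6% in G and 0.588% in FSC. This lowers every member in S and L the most. The most even members over the 8 nucleated types were Cox4i1 (complex IV), with a 1.49-fold range from L to G, Ndufs7 (an iron-sulfur subunit of complex I) with 1.51 and Sdhb (the iron-sulfur subunit of complex II) with 1.58. Cox4i1 lay between 887 and 1563 CPM in all 32 sums of type and lane. CPM are used below to compare a gene between types and not genes with each other, and 45 members have at least 1 pseudogene or like gene in RefSeq with which reads could be shared, so their levels are less certain.

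Whether the hormone-producing cells differ from FSC was tested with edgeR on sums per type and sex, as the mean of C, G, T, S and L against FSC. Most members were higher in HPC. Of 89 members tested, 54 were called higher (adjusted p under 0.05), where 20% of all 13621 genes tested were called higher, and 4 were called lower, where 28.5% of all genes were. The median log2 fold change was 0.53 over the members and -0.09 over all genes. With library size in place of TMM scaling (a scaling on genes that most sums share), the median of all genes moved to -0.39 and the members' to 0.24. The share of all calls that were higher fell from 41.3% to 25.3%. Of the 89 members, 35 were then called higher and 10 lower, where 1681 of all 13621 genes were called higher and 4975 lower.

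Complex I, the NADH dehydrogenase, had 27 of 37 tested rows higher and 1 lower, with a median log2 fold change of 0.59. Ndufa7, an accessory subunit, stood at 229, 232, 267 and 268 CPM in FSC and at 280 to 625 CPM in the lanes of HPC, without overlap (log2 fold change 1.22, SE 0.14, adjusted p = 2.42e-06). Ndufv3, an accessory subunit at the NADH-binding end, had 87.3, 93.9, 113 and 109 CPM in FSC against 247 to 269 in C, 193 to 245 in G and 132 to 195 in L. Its log2 fold change was 1.33 (SE 0.16, adjusted p = 3.92e-06). The row Ndufv3-ps1, listed as its pseudogene, moved with it (1.69, SE 0.19, adjusted p = 1.70e-06), and reads of this pair may be split between them. Ndufa1 gave 1.42 (SE 0.36, adjusted p = 0.00343) at no more than 25.7 CPM in any lane.

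Ndufa10, an accessory subunit related to nucleoside kinases, was the complex I member called lower. It stood at 71.4, 75.5, 70.2 and 73.7 CPM in FSC, above every lane of all 5 HPC types, which had 18.2 to 64.3 CPM. Its log2 fold change was -0.54 (SE 0.15, adjusted p = 0.00538). The CPM are over all UMIs, of which hormone genes fill more in HPC than in FSC. Whether the lanes stay apart without hormone genes was not tested.

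Complex II, the succinate dehydrogenase, did not move as a unit. Sdha, the flavoprotein that oxidizes succinate, had 146, 142, 143 and 139 CPM in FSC and 41.1, 34.3, 39.1 and 48.9 CPM in C. In S it had 39.9, 38.2, 61.1 and 56.2 CPM, and in T 136, 74.0, 96.0 and 119 CPM. In CPM over all UMIs, FSC thus lay above every HPC lane, though T in lane 1 came close. Hormone and globin genes took 11.1% of UMIs in T of lane 1 and 0.490% in FSC of that lane. Whether FSC and T stay apart without these genes was not tested. The log2 fold change of Sdha in HPC against FSC was -1.07 (SE 0.16, adjusted p = 3.21e-05). Sdhb (0.22) and the membrane anchor Sdhc (-0.29) did not pass the test. The other anchor, Sdhd, was called higher at 0.45 (SE 0.15, adjusted p = 0.0190), a call lost without lane 2 (adjusted p = 0.0606) or without lane 3 (0.0829). The call of Sdhd was also lost with library size alone (0.15, adjusted p = 0.474) and with no filter on low counts (0.0894).

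Complex III, which hands electrons to cytochrome c, had 5 of 8 subunits higher. Uqcr11, a small accessory subunit, stood at 481, 487, 517 and 555 CPM in FSC and at 884, 936, 967 and 963 in G, with the lanes of the other HPC at 541 to 847, so that FSC overlapped only with L. The log2 fold change was 0.80 (SE 0.15, adjusted p = 0.000260). Uqcrc2, a core protein, had 0.13 (SE 0.13, adjusted p = 0.432), and with library size alone its value was -0.16.

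Complex IV, the cytochrome c oxidase, had 10 of 15 higher and 2 lower, the widest spread of any complex (-5.76 to 2.83). The members called higher included Cox7b (1.08), Ndufa4 (1.04, a subunit first counted with complex I), Cox7a2 (1.02), Cox6a1 (1.0) and Cox4i1 (0.41). Cox7a2 had 312, 316, 335 and 354 CPM in FSC and 424 to 715 CPM in the HPC lanes, with no overlap. Cox8a (0.30) did not pass the test, nor did the supercomplex factor Cox7a2l (-0.28). The 2 lower ones, Cox6b2 and Cox4i2, are alternative forms of subunits and are described with the forms.

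Complex V, the ATP synthase, had 9 of 14 subunits called higher. Atp5g1 (1.28, SE 0.20, adjusted p = 5.81e-05) and Atp5g3 (0.64), both genes of subunit c, were higher, and the other subunit c gene, Atp5g2, had -0.17 (SE 0.15, adjusted p = 0.405). Atp5g2 was called lower with library size alone (-0.46, adjusted p = 0.00395) and with sums per lane (-0.25, adjusted p = 0.0108). Of the 7 assembly factors, 1 was called higher, Ndufaf3 (1.03). Of the 13 protein genes of the mitochondrial genome, 3 were called higher, with a median of 0.30.

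**Figure D2:**
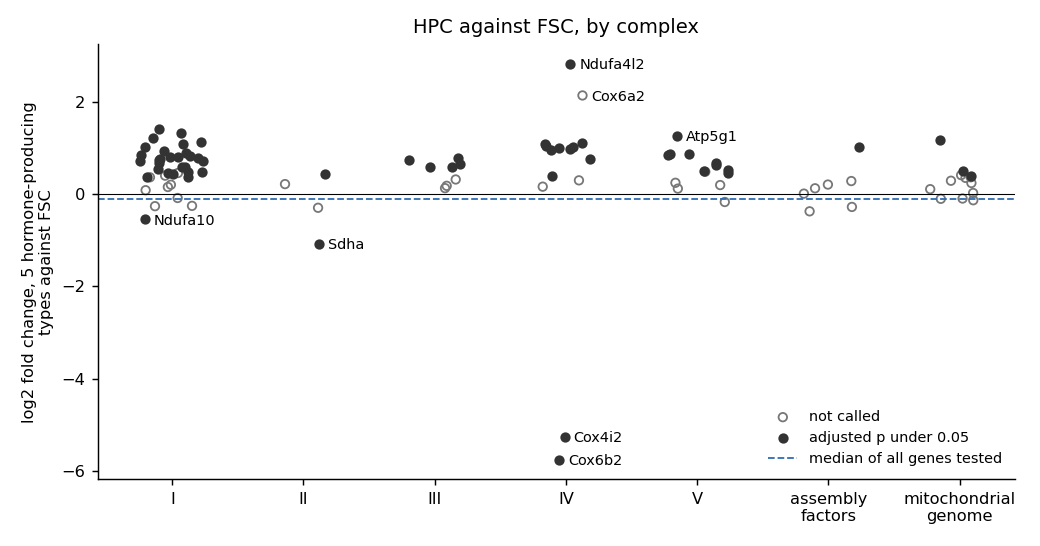
Log2 fold change in HPC against FSC (vertical axis) of the members of complexes I to V, of the assembly factors among the members and of the mitochondrial genome (horizontal axis), 1 point per gene, filled where the adjusted p is under 0.05, with the median of all genes (-0.09) as a dashed line. Most members of complexes I, III, IV and V lie above the line, Cox6b2 (-5.76) and Cox4i2 (-5.27) lie far below it, and the open point of Cox6a2 has no usable error.

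The forms of the complex IV subunits were not spread evenly over the types. Cox6b2, the form of subunit 6B known from testis, had 94.4, 79.6, 88.9 and 73.5 CPM in FSC. In S it had 1.36, 1.66, 1.97 and 1.22 CPM, in C 0.563, 2.35, 1.46 and 0.373, and in EC 5.38, 19.6, 10.6 and 5.15. All FSC lanes lay above all lanes of the 7 other nucleated types, and the log2 fold change in HPC against FSC was -5.76 (SE 0.23, adjusted p = 5.36e-12). A UMI of Cox6b2 was seen in 808 of 2312 FSC (34.9%, median depth 6895 UMIs) and in 24 of 1888 S (1.27%, median depth 13660.5 UMIs). The part of free RNA in the UMIs of S was not tested. Cox6b2 made up 10.0% of the UMIs of both 6B forms in FSC (95% exact binomial interval 9.55 to 10.5%, counting error only) and 0.252% in S (0.181 to 0.342%). The common form, Cox6b1, is listed under the symbol LOC688869.

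Cox4i2, the form of subunit 4 known from lung and from oxygen sensing, had 67.4, 71.9, 31.2 and 25.5 CPM in FSC, with both female lanes above both male lanes. In S it had 0.387, 0.923, 0.131 and 0.365 CPM and in C 0, 1.41, 0 and 0.373. The log2 fold change in HPC against FSC was -5.27 (SE 0.60, adjusted p = 2.53e-05). Its share of the UMIs of both subunit 4 forms in FSC was 6.10, 6.44, 2.53 and 2.1% in the lanes, against 0.0374% over all lanes in S. A UMI was seen in 544 FSC (23.5%) and in 10 S (0.530%).

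Cox6a2, the form of subunit 6A known from heart and skeletal muscle, was seen in C. It had 25.3, 24.9, 22.3 and 19.4 CPM there and at most 6.61 CPM in any lane of another type. The 211 UMIs in C were found in 103 of 794 cells (13%, median depth 11473 UMIs). In G and EC, 0 of 3854 and 0 of 1397 UMIs of subunit 6A were from Cox6a2, which allows shares of up to 0.0778% and 0.215%. In C it made up 1.92% of the UMIs of both 6A forms (1.67 to 2.20%), and 0.0407% in S, where 8 cells (0.424%, median depth 13660.5 UMIs) had a UMI. The part of free RNA in S was not tested for Cox6a2 either. The fitted log2 fold change of C against the other types was 5.86 (SE 0.40, adjusted p = 7.54e-08), a size that depends on how the fit treats the types at 0. In HPC against FSC it could not be fitted to a usable error, with no UMI in G. The size given below for L against the other types also depends on the types at 0.

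Ndufa4l2, a relative of Ndufa4 known to rise when oxygen is short, had 12.4, 16.4, 18.9 and 26.6 CPM in S and 15.6, 16.3, 9.08 and 12.3 CPM in L. In FSC it had 0.981, 0.899, 2.50 and 2.12 CPM, below every lane of S and L. G had 12.5, 9.51, 20.9 and 4.29 CPM and T 0, 24.7, 2.53 and 13.2 CPM, and their lanes overlapped those of S and L. In HPC against FSC its log2 fold change was 2.83 (SE 0.91, adjusted p = 0.0280), a call lost without lane 2 (adjusted p = 0.0536) or without lane 4 (0.0518). In S it was 1.71% (1.56 to 1.86%) of the UMIs of the pair, in L 1.25%, in G 1.17% (0.803 to 1.65%), in T 0.609%, in C 0.262% and in FSC 0.254%. The interval of G overlapped those of S and L. That of T (0.279 to 1.15%) overlapped those of G, L, C and FSC. A UMI was seen in 384 S (20.3%), 67 L (13.8%), 26 G (10.9%) and 9 T (10.2%), and in 29 FSC (1.25%).

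Cox7a2 made up all but 0 to 8 UMIs of the 7A pair in every nucleated type, so its partner form Cox7a1, listed as LOC687508, was near 0 throughout. Cox8b, Cox8c and Cox7b2 stayed below 30 cells. Subunits that the table lists under other names, among them Cox6b1, Cox7a1, Ndufa13 and the complex V inhibitor Atp5if1, are not members.

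**Figure D3:**
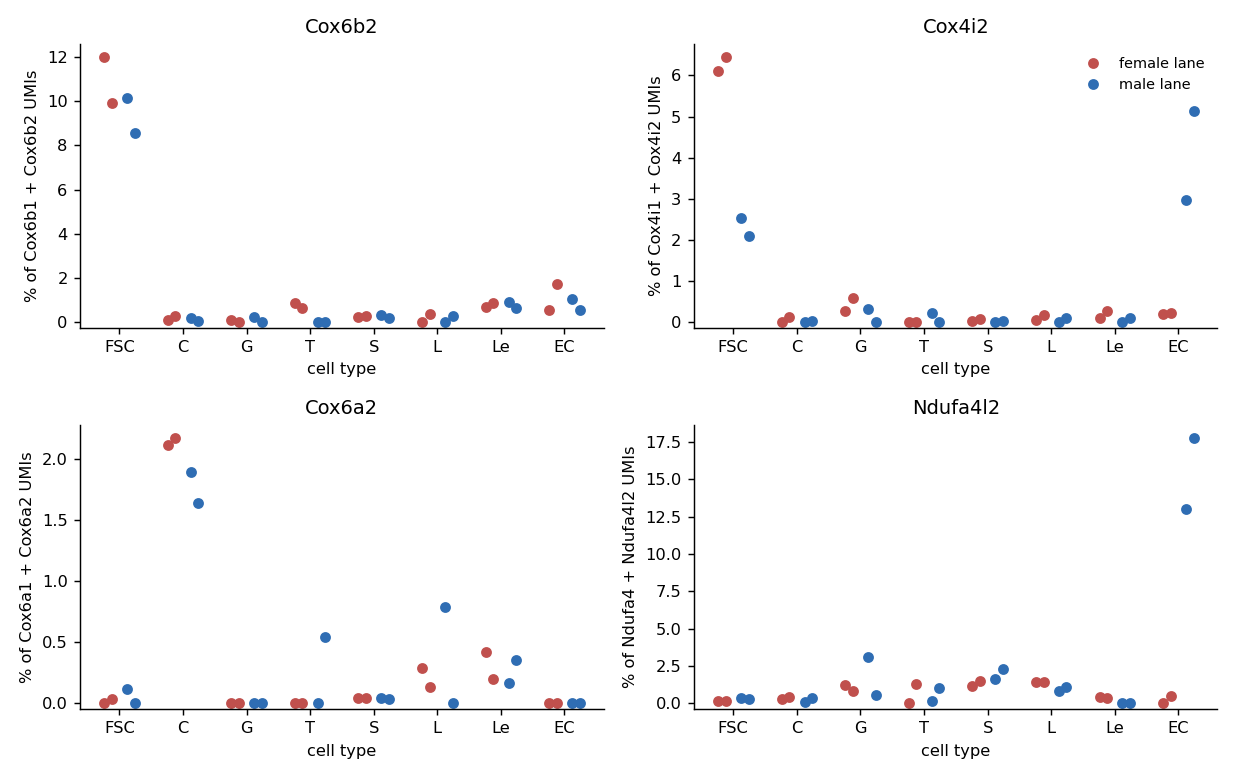
Percent of a subunit's UMIs that came from the less common form (Cox6b2, Cox4i2, Cox6a2 and Ndufa4l2, 1 panel each, vertical axes of different range) in each nucleated cell type, with a red point for each female and a blue point for each male lane. Cox6b2 (8.55 to 12%) and Cox4i2 (2.1 to 6.44%) stand out in FSC, Cox6a2 (1.64 to 2.17%) in C, and Cox4i2 and Ndufa4l2 in the male lanes of EC.

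Subunit c of the ATP synthase forms the ring that turns with the passage of protons, and its 3 genes, Atp5g1, Atp5g2 and Atp5g3, encode the same mature protein with different import sequences. Atp5g1 had 1145, 1103, 1074 and 1039 CPM in S, 783, 803, 775 and 774 in L, 373, 385, 409 and 403 in C and 308, 291, 352 and 391 in FSC. S lay above L, and L above C and FSC, in every lane. Atp5g2 ran the other way, with 824, 841, 925 and 944 CPM in FSC and 529, 508, 539 and 520 in S. These CPM are over all UMIs, of which hormone genes fill 30.2% in S and 0.588% in FSC, which widens this gap. Atp5g3 stayed between 171 and 313 CPM in the lanes of FSC and HPC.

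As a share of the UMIs of all 3 genes, Atp5g1 was 58.4% in S (58.0 to 58.9%), 49.0% in L, 45.2% in T (42.7 to 47.8%), 36.4% in G, 29.5% in Le, 26.3% in C, 24.3% in EC and 23.7% in FSC. The intervals of FSC and EC overlapped, as did those of C and EC. Atp5g2 made up 62.1% in FSC and 28.3% in S. With lanes pooled, the 3 types of the lineage marked by Pou1f1 (S, L and T) had the 3 highest shares of Atp5g1. The lanes of T were at 42, 35.3, 50.2 and 44.6%, of which lane 2 lay below every lane of G (35.7 to 37.3%), so that T and G overlapped by lane. The log2 fold change of Atp5g1 was 1.57 in S against the other types (SE 0.16, adjusted p = 1.38e-06) and 1.02 in L (SE 0.17, adjusted p = 0.000268). Both Atp5g1 and Atp5g2 have like genes in RefSeq, 4 and 6 of them.

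**Figure D4:**
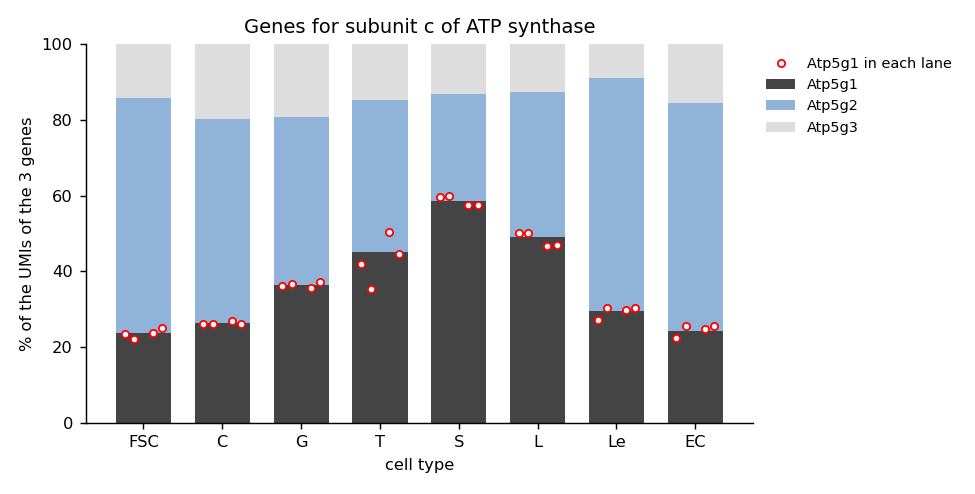
Share (%, vertical axis) of the UMIs of the 3 subunit c genes held by Atp5g1 (dark), Atp5g2 (blue) and Atp5g3 (light) in each nucleated type, all lanes together, with the share of Atp5g1 in each lane as circles. Atp5g1 goes from 23.7% in FSC to 58.4% in S, while Atp5g2 goes from 62.1% to 28.3%.

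Each type was also set against the mean of the 7 other nucleated types. In G, 37 of 89 members were called higher and 1 lower (16.2% and 6.75% of all genes). Ndufa6, a complex I subunit that needs the acyl carrier Ndufab1, had 1786, 1933, 1963 and 1970 CPM in G and 296 to 618 CPM in the lanes of all other nucleated types (1.98 on the log2 scale, SE 0.12, adjusted p = 4.98e-09). No G lane came near another type. Ndufc2 (1.33, adjusted p = 4.56e-06) had 564, 632, 835 and 988 CPM in G against 369 to 383 CPM in C. Atp5c1, the gamma shaft of the ATP synthase, had 589, 594, 640 and 699 CPM in G against 353 to 378 CPM in C (1.14, adjusted p = 2.39e-06). Cox6b2 was the member called lower (-2.62), a call lost without lane 2 (adjusted p = 0.211) and with only 2 UMIs in G.

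In S, 32 members were called higher and none lower by edgeR (22.5% and 10.2% of all genes). At an unadjusted p under 0.05 there were 38 in either direction. DESeq2 called 28 higher and 2 lower, where 51.6% of all its calls were higher. The largest were Ndufa4l2 (2.08, adjusted p = 0.0307) and Atp5g1, and Ndufv3-ps1 (1.19). The call of Ndufa4l2 was lost without lane 4 (adjusted p = 0.0632), with library size alone (0.0612) and with DESeq2 (0.0651). With library size alone, S had 4 higher and 7 lower, where 39.5% of all calls were higher. In L, 27 were higher and 1 lower (18.3% and 7.6%), led after Cox6a2 (2.39, lost without lane 1 or 3 at adjusted p = 0.0839 and 0.334, at 13 UMIs) by Atp5g1 and Ndufb2 (0.91, adjusted p = 0.000150). Cox6b2 was the lower one (-1.65, with 6 UMIs), a call lost without lane 1 (adjusted p = 0.298) or 3 (0.173) and with DESeq2 (0.0536). With library size alone the counts in L became 6 and 5 (45.6% of all calls were higher), and with sums per lane and the lane as a block 43 and 5.

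In C, 24 were higher and 6 lower (20.8% and 10.1%), with Atp5s (1.15, lost without lane 3, adjusted p = 0.0794) and Ndufv3-ps1 (1.02) after Cox6a2, and with Cox6b2 (-1.72, with 11 UMIs, lost without lane 1 at adjusted p = 0.0740), Sdha (-0.88) and Cox5a (-0.73) among the lower ones. With sums per lane and the lane as a block the counts in C were 45 and 6. In T, 9 were higher and 6 lower (11.4% and 5.06%). With sums per lane and the lane as a block they were 17 and 12. Shares over all genes for sums per lane are not given here, for any type. Ndufaf2 gave 0.95 (SE 0.28, adjusted p = 0.0285), a call lost without lane 1 (0.145), 3 (0.0591) or 4 (0.190). Ndufa4 (0.87, SE 0.17) and Ndufb4 (0.84, SE 0.13) rose, and Cox7a2l (-0.70), Uqcrc2 (-0.65) and Ndufv1 (-0.65, lost without lane 2 or 4 at adjusted p = 0.0731 and 0.0610), the NADH-binding subunit, fell. Of these, Ndufv1 and Uqcrc2 were no longer called with library size alone (adjusted p = 0.162 and 0.132).

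In FSC, 5 members were higher (Cox6b2 at 5.04, Cox4i2 at 4.52, Sdha at 0.99, Ndufa10 and Sdhc) and 42 lower, where 28.1% of all genes were higher and 12.2% lower. The largest falls were Ndufa1 (-1.26), Ndufv3-ps1 (-1.05) and Atp5g1 (-1.02). With library size alone the counts were 10 higher and 19 lower, where 85.6% of all calls were higher. In Le, 10 were higher and 43 lower (26.5% and 22.6%), among them Cox6b2 (1.29, with 21 UMIs, lost with library size alone at adjusted p = 0.0826), Atp5sl (1.16) and Cox7a2l (0.99) higher. Lower in Le were Ndufa4 (-1.31), Ndufaf2 (-1.21, adjusted p = 0.00233) and Atp5s (-1.62, with 9 UMIs, lost without lane 2 at 0.0901 or lane 3 at 0.141, and with outliers and doublets kept at 0.0738).

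In EC, 3 were higher and 46 lower (20.5% and 18.5%), with Ndufv3-ps1 at -2.19 (SE 0.32, adjusted p = 4.23e-05) and Ndufa2 at -1.53 (SE 0.21, adjusted p = 1.72e-05). Ndufaf1 gave -1.74 (adjusted p = 0.0300) from 3 UMIs, and its call was lost whichever lane was left out (0.0503 to 0.200). Cox4i2, with 2.69, 3.26, 42.5 and 82.4 CPM in EC, was called higher (3.61), a call lost without lane 3 (adjusted p = 0.0713) or lane 4 (0.0607). Cox6b2, with 12 UMIs in EC, was called higher (1.41, adjusted p = 0.0293), a call lost without lane 2 (0.221) or lane 3 (0.0648).

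All 6 pituitary types together, set against Le and EC, had 58 members higher and 7 lower (30.9% and 23.9% of all genes), with a median of 0.58 against 0.19 over all genes. Complex I again had the most, 28 higher and 1 lower of 37, with Ndufv3 at 1.42 (SE 0.13, adjusted p = 1.54e-07) and Ndufa2 at 1.39. Ndufv3-ps1 gave 1.95 (SE 0.21, adjusted p = 6.13e-07). The mitochondrial genome had 12 of 13 higher. Sdhd (-0.54, SE 0.11, adjusted p = 0.000760) and Cox6b2 (-1.58) were among the lower ones, as was Atp5sl (-0.65, adjusted p = 0.00844), a call lost with no filter (0.0645) and with library size on sums without hormone genes (0.103).

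Cells from the female and the male pool were compared within each type on sums per lane, 2 against 2. The largest number of calls was in L. There, 48 of 85 members were lower in males and 5 higher, where 19.4% of all genes were lower and 14.9% higher, and the median log2 fold change was -0.34 over the members and 0.02 over all genes. By complex, the counts lower were 17 of 36 for I, 1 of 4 for II, 6 of 8 for III, 11 of 12 for IV and 12 of 14 for V, and 11 of 13 genes of the mitochondrial genome were lower.

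The direction in L rests on the scaling. Female L had 18316 UMIs per cell in the median and male L 7265, and hormone and globin genes took 32.4 and 31.4% of UMIs in the female lanes and 18.8 and 17.9% in the male lanes. With library size alone, 51 members were higher and 8 lower, the median of all genes moved to 0.67 and that of the members to 0.32, and 89.2% of all calls were higher in place of 43.4%. With library size on sums without the hormone genes, 18 were higher and 22 lower, with medians of 0.40 and 0.04. The members' median lay 0.36 below that of all genes under each of these scalings. A scaling shifts all genes nearly alike, so this difference could hardly change and is no support for the direction. As a share of UMIs without hormone and globin genes, the members fell from 3.89 and 4.02% in females to 3.63 and 3.61% in males, with no overlap, and as a share of all UMIs they stood at 2.63 and 2.76% against 2.95 and 2.97%.

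The members that fell most in male L kept a negative value also with library size alone. Atp5e, the epsilon subunit of complex V, had 1140 and 1296 CPM in the female lanes and 853 and 833 in the male lanes (-1.18 on the log2 scale, SE 0.06, adjusted p = 1.15e-24). Uqcrq of complex III went from 774 and 749 CPM to 572 and 550 (-1.09, SE 0.07), and Ndufb5 of complex I from 372 and 397 CPM to 292 and 269 (-1.11, SE 0.09, adjusted p = 2.01e-17). Ndufc1 went from 401 and 425 CPM to 337 and 323 (-0.98), and Cox5a, a complex IV subunit, from 218 and 228 to 193 and 187 (-0.89), no longer called with library size alone (adjusted p = 0.0511). For each of these 5 genes both female lanes lay above both male lanes. Ndufa4l2 gave -1.23 from 15.6 and 16.3 to 9.08 and 12.3 CPM, and was not called without lane 3 (adjusted p = 0.0773) or with library size alone (0.143).

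The 5 members higher in male L were Atp5s (1.28), Ndufaf2 (1.03), Ndufaf7 (1.0), Sdha (0.62) and Sdhc (0.42). Sdha had 25.0 and 29.2 CPM in females and 69.9 and 60.3 in males, and Sdhc 100 and 86.0 against 195 and 195. Ndufaf2, an assembly factor of complex I, had 9.44 and 14.8 against 41.8 and 35.8 CPM. These groups did not overlap, but all 5 calls were lost with DESeq2 (adjusted p of 0.134 to 0.424) and each without at least 1 lane: Sdha without lane 1 (0.114) or 3 (0.135), Sdhc without lane 2 (0.137), Ndufaf2 without lane 1 (0.0779), Ndufaf7 without lane 1 (0.130) or 4 (0.10), and Atp5s, with 35 UMIs, without lane 1, 2 or 4 (0.323, 0.175 and 0.709).

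**Figure D5:**
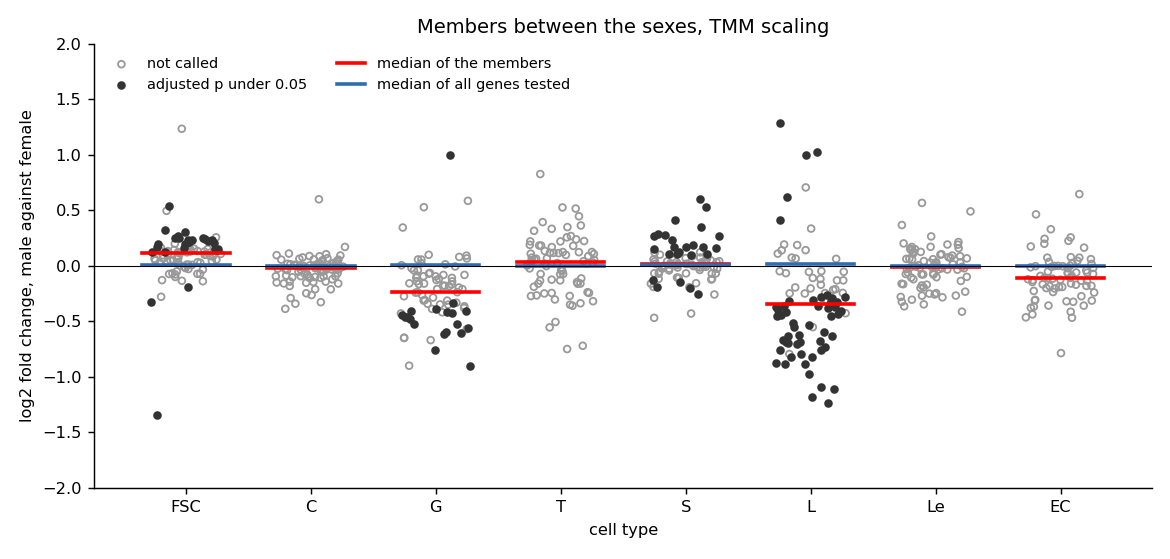
Log2 fold change of each member in male against female cells with TMM scaling (vertical axis, limited to 2 in either direction), by cell type, 1 point per member, filled where the adjusted p is under 0.05, with lines at the medians of the members (red) and of all genes tested (blue). In L the red line lies at -0.34 and the blue line at 0.02, and Ndufa4l2 (5.74) and Cox4i2 (4.12) of EC lie outside the axis.

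Whether the sex difference in L differs from that in the other pituitary types was tested as an interaction, L against the mean of FSC, C, G, T and S. It was lower in L for 46 members and higher for 2 (9.94% and 6.79% of all genes), with a median of -0.32 against -0.03. Atp5e (-1.09, SE 0.08, adjusted p = 9.65e-25) and Ndufb5 (-1.04, SE 0.10) led. In FSC, Atp5e had 718 and 759 CPM in females and 913 and 883 in males, the other direction to L. Atp5s (1.74) and Ndufaf7 (1.12) were called higher, and both calls were lost without lane 1 (adjusted p = 0.183 and 0.414) or lane 4 (0.651 and 0.156). With library size alone, 43 were higher and 7 lower, where 89.3% of all calls were higher.

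In G, 18 of 81 members were lower in males and 1 higher (8.34% and 6.61% of all genes). Ndufa4 had 1037 and 1137 CPM in females and 647 and 744 in males (-0.91, SE 0.11, adjusted p = 1.92e-05), and Cox7b 1016 and 1109 against 701 and 810 (-0.75, SE 0.11, adjusted p = 0.000117). Ndufc1 gave -0.61. Sdha was the member called higher, with 45.7 and 39.1 CPM against 116 and 87.9 (1.0, SE 0.23, adjusted p = 0.00575), lost without lane 3 (0.10). The count of calls changed with single lanes: it was 7 without lane 4 and 36 without lane 1, and DESeq2 called 8. Here and in the other types, shares over all genes are not given for these settings between the sexes. Such counts are therefore not read as results about the members. With library size alone, 5 were higher and 5 lower, where 75.1% of all calls were higher.

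In S, 21 of 87 members were higher in males and 5 lower (13.4% and 13.1%), with a median of 0.02. Sdha had 39.9 and 38.2 CPM in females and 61.1 and 56.2 in males (0.53, SE 0.09, adjusted p = 1.02e-05). Ndufa9 (0.41) and Ndufa4l2 (0.60) were also higher, the latter lost without lane 1 (adjusted p = 0.234) or 4 (0.191). Cox7a2 was lower, with 568 and 528 against 477 and 478 CPM (-0.25, SE 0.04, adjusted p = 6.45e-07), as were Cox7a2l (-0.20) and Cox7a2l2 (-0.19, lost without lane 4, adjusted p = 0.121). Of the mitochondrial genome, 9 of 13 genes were lower. Without lane 1 the members' count was 15 and without lane 4 it was 17, with no share over all genes given for either. With library size on sums without hormone genes, 51 were higher and 1 lower, but 72.4% of all calls were then higher. The median was 0.136 over the members and 0.124 over all genes, so this count goes with a shift of all genes.

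In FSC, 24 of 88 members were higher in males and 3 lower (6.75% and 6.86%). The changes were small: Cox8a gave 0.30 (SE 0.04, adjusted p = 2.79e-07), Ndufaf3 0.32 and Ndufv3-ps1 0.54. DESeq2 called 3 higher and 1 lower, and the count fell to 11 without lane 1, 13 without lane 3 and 6 without lane 4. Without shares over all genes for these settings, the lower counts are not read as results about the members. Ndufaf3 was lost without lane 1, 3 or 4 (adjusted p = 0.138, 0.24 and 0.0798) and Ndufv3-ps1 without lane 1 or 4 (0.136 and 0.157). Ndufs5 (-0.33) was lost without lane 4 (0.0948) and Ndufs4 (-0.19) whichever lane was left out (0.0589 to 0.252).

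Cox4i2 was the member that differed most in FSC, at -1.34 on the log2 scale in males (SE 0.11, adjusted p = 5.71e-12). Tagln, a contractile gene on the marker list of mural cells (pericytes and smooth muscle), moved with it in FSC, at 989, 1105, 378 and 408 CPM. The 9 mural markers summed to 1019, 1127, 394 and 423 CPM there, nearly all of it Tagln. The study also names Tagln as a gene of FSC. The other mural markers were low in FSC. Vtn and Kcnj8 had 0 UMIs, Abcc9 had 2 and Rgs5 had 7, and Cspg4 stood at 2.94, 4.72, 4.81 and 3.86 CPM. Acta2 stood at 9.81, 2.92, 0.192 and 0.579 CPM, Notch3 at 13, 12.8, 9.23 and 8.30, and Pdgfrb at 3.19, 1.57, 1.15 and 1.54. In Acta2, Notch3 and, by little, Pdgfrb both female lanes lay above both male lanes, as for Cox4i2, while Cspg4 did not separate the sexes. The part of mural cells in the difference was not tested.

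In C, T and Le, edgeR called none of 86, 77 and 80 members between the sexes, with 5, 6 and 4 at an unadjusted p under 0.05, and DESeq2 called none either. Of all genes, 0.473% were higher and 1.01% lower in C, 3.6% and 1.82% in T, and 0.421% and 1.19% in Le. T had 37 female and 51 male cells. In Le 1 member was called without lane 2, and in T 1 without lane 1 and 1 without lane 2, and 2 with library size alone.

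In EC, Ndufa4l2 had 0 and 3.26 CPM in females and 85.1 and 129 in males (5.74, SE 0.69, adjusted p = 3.19e-06), and Cox4i2 had 2.69 and 3.26 against 42.5 and 82.4 (4.12, SE 0.77, adjusted p = 0.00143). They were the only members called of 75 (1.03% of all genes were higher and 1.01% lower), and without lane 4 the count was 1. All 50 UMIs of Ndufa4l2 lay in 7 of 133 EC, each of which also held a UMI of Rgs5, Pdgfrb, Notch3, Vtn or Cspg4, genes of mural cells, as 17 EC did in all. Of 30 UMIs of Cox4i2, 29 lay in 6 such cells. The 9 mural markers summed to 64.6, 71.7, 478 and 901 CPM in EC.

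Genes around the pathway were read from lists of known function. Of all genes tested in HPC against FSC, 20% were called higher and 28.5% lower, and the counts are to be read against these shares. In HPC against FSC, 2 of 12 electron carrier and coenzyme Q genes were higher and 1 lower: Coq10a (1.87) and Cycs, cytochrome c (0.67), rose, and the coenzyme Q methyltransferase Coq3 fell (-1.12). Of 29 assembly factors outside the symbol rule, 13 were higher and 5 lower, with the copper chaperone Cox17 (1.84) and Lyrm7 (1.61) highest and Nubpl (-1.47) and Coa5 (-1.11) lowest. Of 12 genes of the TCA cycle, 4 were higher and 2 lower, with Mdh2, malate dehydrogenase, at 0.71, the succinyl-CoA ligase subunit Suclg2 at -2.19 and Idh2 at -1.18.

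Of 9 regulators of mitochondrial biogenesis, 1 was higher, Esrra (1.02), and 3 were lower (20% and 28.5% of all genes). Among the lower ones were the coactivators Ppargc1a at -2.96 (SE 0.46, adjusted p = 8.12e-05) and Ppargc1b at -1.19. In the interaction, Ppargc1a had no usable error (SE 2577) and Ppargc1b a wide error (SE 1.78). Their levels are not given here, and the sizes may depend on types near 0. Of 7 carriers and pores, the ADP/ATP carrier Slc25a5 was higher (0.62) and Vdac1 lower (-0.66). Of 15 genes of glycolysis, 2 were higher, Pgam1 (2.80) and Aldoa (1.21), and 6 lower, with Aldoc, the brain form of aldolase, at -6.02 (SE 0.19, adjusted p = 9.12e-13) and the lactate dehydrogenase subunit Ldhb at -3.59 (SE 0.17).

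In L, the same lists were read between the sexes, where 14.9% of all genes were higher in males and 19.4% lower. Of 10 electron carrier genes 1 was higher and 1 lower, of 12 TCA cycle genes 2 and 2, of 14 glycolysis genes 4 and 3, and of 27 assembly factors outside the symbol rule 6 were lower. Slc25a5 was lower (-1.34, SE 0.12, adjusted p = 5.93e-15), as was Cs, citrate synthase (-1.54, SE 0.46, adjusted p = 0.00615). Cycs had 0.12 (adjusted p = 0.438).

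The pattern of Cox6b2 over 8 types and 4 lanes was most like that of LOC686753 (Pearson r = 0.889 over 32 points of log2(CPM + 1)), Gxylt2 (0.886) and Galm (0.883). These points share lanes and classes of cells, so the values are a description.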

How the data were processed

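The deposited table holds whole-number UMI counts per gene and cell, which the authors made with Cell Ranger 2.1 against an NCBI rat annotation extended at 3′ ends, after equalizing mapped reads between lanes. Such counts depend on how well a gene's 3′ end is annotated and on free RNA. Each cell's lane was read from its barcode, and the cell number of a lane told its sex. No column of values was without a sample (0 left out). Cells were classified by marker genes with Otsu thresholds (256 bins), as in the study's methods, with 30 neighbors for cells left unassigned. Removed were 274 cells with a mitochondrial share over 2 SD above the mean, 328 in the lowest or highest 1.5% by genes or UMIs, 196 called doublets (30% synthetic doublets, 10 repeats), 207 that met several rules, 60 melanotrophs, 51 pericytes and 59 posterior pituitary cells. The members and lists were chosen with earlier results of these data known.

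UMIs were summed per type and sex (types) or per type and lane (sexes, interaction) and tested with edgeR 4.0.16 in R 4.3.3 (quasi-likelihood, TMM, filterByExpr with a minimum count of 10, 2-sided, Benjamini-Hochberg adjustment over all genes tested, limit 0.05). Scripts were tested on simulated data. E were left out of the tests between types. The text names the forms of subunits and complex II, the members highest and lowest inside each complex, and, among called members of the same direction in both sexes or all 4 lane pairs, the 6 largest changes each way in HPC against FSC and in male L, the 3 in other contrasts and the 2 in the interaction. Ndufs7, and the values of Cox7a2 and Uqcr11 set out by lane, were chosen after values were seen. Alternatives were DESeq2 1.42.0, library size only, no filter, sums without 7 hormone genes, sums per lane, E in the fit, outliers and doublets kept, a limit of 0.001 and each lane left out. Library size on sums without hormone genes, EC without mural UMIs, and sums per lane with the lane as a block (types, interaction) were added after seeing the data. Intervals are exact (Clopper-Pearson, 95%), and a count of 0 was given a limit of 3 UMIs. A RefSeq table of GRCr8, a later assembly than the authors', gave names, like genes and promoters.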

Additional observations from a re-analysis of the deposited data

Results flagged for a closer look

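The sex difference in L differed from that of the other pituitary types by the test of the interaction, on the log2 scale, for Atp5s (1.74) and Ndufaf7 (1.12), which were higher in L, and for Atp5e (-1.09) and Ndufb5 (-1.04), which were lower. The first pair rested on lanes 1 and 4, without either of which neither was called.

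Several members were called in opposite directions between the sexes in different types. For these, the sizes in each type are log2 fold changes of male against female cells, and the difference between each pair of types was not itself tested, except as L against the mean of the other pituitary types. Atp5e had 0.24 in FSC and 0.17 in S but -0.52 in G and -1.18 in L. Cox7b had 0.23 in FSC, -0.75 in G and -0.82 in L, and Ndufa4 had 0.20, -0.91 and -0.70. Uqcrq had 0.15 in FSC, -0.46 in G and -1.09 in L. Cox8a had 0.30 in FSC and 0.24 in S but -0.43 in L, and Cox5a had 0.22 in FSC and -0.89 in L. Ndufs4 had -0.19 in FSC and 0.19 in S. Cox4i2 had -1.34 in FSC and 4.12 in EC, and Ndufa4l2 had 0.60 in S, -1.23 in L and 5.74 in EC, where both EC values came from a few cells with mural UMIs. The values in L with library size alone were -0.52 for Atp5e, -0.43 for Uqcrq and -0.16 for Cox7b, each still called lower. Cox5a (-0.22), Ndufa4l2 (-0.58) and Ndufa4 (-0.04) were no longer called by edgeR (adjusted p = 0.0511, 0.143 and 0.579). Cox8a turned to 0.23.

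The 51 pericytes, which entered no comparison, held more of 3 less common forms than any type compared when lanes were pooled. Of the UMIs of each subunit, Cox6b2 made up 23.9% (95% exact interval 19.3 to 29.0%), Ndufa4l2 20.9% (16 to 26.5%) and Cox4i2 11.8% (8.77 to 15.5%). By lane, Cox6b2 had 25.9, 14.6, 22.4 and 29.2%, above every lane of each type compared. The other 2 forms were uneven: Cox4i2 had 12.2, 45.5, 0 and 3.26%, and Ndufa4l2 36.4, 54.2, 8.24 and 2.99%. In the male lanes both lay below EC of the same lane, where Cox4i2 made up 2.97 and 5.13% and Ndufa4l2 13 and 17.7%. The name pericytes is the study's, which picked these cells by Col1a1, Col1a3, Dcn and Lum, not by the mural markers used above. Dcn stood at 8183, 5322, 5649 and 9482 CPM in them. Their mural markers were mixed. Pdgfrb, at 316, 714, 383 and 279 CPM, lay above EC in every lane. Rgs5, at 511, 649, 150 and 32.2 CPM, lay below EC in the male lanes (259 and 432). The leukocyte markers summed to 0, 21.6, 1140 and 21.5 CPM in them. The pericytes were not filtered by mitochondrial share, outliers or doublets, as the types compared were. Whether these cells are mural cells, or partly mixed droplets, was not tested.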

How the results depend on the processing

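Counts of called members are given. With a limit of 0.001 in place of 0.05, 31 were called in HPC against FSC, 38 in pituitary types against Le and EC, and against the other types 13 in FSC, 5 in C, 12 in G, 1 in T, 6 in S, 2 in L, 24 in Le and 20 in EC. Between the sexes this limit left 4 in FSC, 2 in G, 12 in S and 1 in EC, and 31 in the interaction. With library size only, counts against the other types were 29 in FSC, 23 in T, 11 in S (4 higher, 7 lower), 11 in L and 26 in EC. Of all calls there, 85.6, 82.8, 39.5, 45.6 and 74.7% were higher, in this order. Between the sexes the counts of members with library size only were 10 in G, 2 in T and 59 in L (51 higher), and 50 in the interaction (43 higher). Of all calls, 75.1, 43.7, 89.2 and 89.3% were higher, in this order. With library size on sums without hormone genes the counts of members were 60 in C, 29 in T and 18 in L, and 52 between the sexes in S. Of all calls, 79.7, 84.1, 65.8 and 72.4% were higher, in this order. Sums per lane gave 50 in C, 29 in T and 46 in L, and with the lane as a block 51, 29 and 48. With E in the fit T had 15, of which 9 were lower. DESeq2 called 4 in FSC, 8 in G, 10 in S and 1 in EC between the sexes. No filter gave 29 in G, and EC without mural UMIs gave 0 by edgeR (2 of 72 at an unadjusted p under 0.05), which follows from how it was made, since the cells left out hold nearly all UMIs of the called members. Uqcrc2 in HPC against FSC turned to -0.16 with library size only. With each lane left out, counts ranged from 20 to 28 in S against the other types, and between the sexes from 6 to 23 in FSC, 7 to 36 in G, 0 to 1 in T, 15 to 26 in S, 0 to 1 in Le and 1 to 2 in EC. The cause of these shifts was not tested. For settings other than library size, shares over all genes are not given here, so those counts are not read as results about the members.

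Shares without hormone and globin genes were 4.26% in C, 4.76% in G, 4.03% in T, 4.05% in S, 3.79% in L and 0.206% in E. Without mitochondrial transcripts they were 3.52% in C, 4.35% in G, 3.70% in T, 2.95% in S, 1.96% in Le and 2.77% in EC. With subunits alone they were 3.31% in C and 1.83% in Le, with cell means 3.45% in C, and with outliers and doublets kept 0.0850% in E.

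Between types every fit held the sex, and so the pool, as a term. With the lane as a replicate block, chosen after seeing the data, the other 7 counts between types stayed within 1.5 times and the interaction had 50. Between the sexes no paired analysis was possible because each lane holds 1 sex and no replicate number of the labels pairs female with male lanes. With 1 pool per sex, no p-value covers a spread between animals. Depth limits T (88 cells), EC (133 cells) and members of few UMIs, such as Atp5s, Cox6a2 and Ndufa4l2.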

Other observations

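The cells left out of the comparisons had member shares of their own. Unlike the types compared, they were not filtered by mitochondrial share, outliers or doublets. In the 60 melanotrophs, the cells of the intermediate lobe, the members took 3.38, 2.74, 3.03 and 2.93% of UMIs in the 4 lanes. This range overlapped S, L and EC, and through lane 1, with 3 cells, also C and T. Only 4 of these cells were female. The 51 pericytes had 2.29, 2.38, 2.27 and 2.33%, below every lane of FSC and EC and above every lane of Le. The 59 posterior pituitary cells had 1.74, 2.31, 3.56 and 4.08%, with only 4 female cells behind the lower pair of values.

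Sdha was called higher in male cells of G (1.0), S (0.53) and L (0.62) on the log2 scale, while in FSC, where it was highest, it stood at 146, 142, 143 and 139 CPM with no call. The calls in G and L each rested on single lanes, as given with those comparisons.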
